A study of Mus musculus with 4 samples.

Results

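Footpad RNA of the embryonic mouse was compared with a pool of mouse cell line RNA on the same array, in every one of the 4 samples of the series. The comparison used all probes of the 4 arrays that were not control probes, and the 4 arrays served as replicates, so the members are 4 of 4 samples. The samples were 2 wild-type (WT) and 2 Tabby (Ta) footpad RNAs, numbered 3 and 4 in each genotype, all from C57BL/6 embryos at E17.5. By label the Tabby samples carry a gene knock-out, which in Tabby affects the signalling ligand Eda, and are of mixed sex, whereas both WT samples are male, so sex and genotype go together. Nothing in the labels states that samples of a genotype came from separate animals, so p-values rest on a spread between samples that may be technical only. Footpad RNA was labelled with Cy3 and the pool with Cy5 on all 4 arrays, and the dyes were not swapped. Every ratio therefore holds both a difference between RNA sources and any difference between dyes, which cannot be told apart.

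The footpad is the thickened skin of the paw, and in mice it is the skin that bears sweat glands. At this embryonic age it holds epidermis, dermis, vessels, nerve endings and other cells together, so its RNA is that of a tissue. The reference pool held equal parts of RNA from 11 cultured mouse cell lines, of embryonic, fibroblast, kidney, liver, macrophage, lymphocyte, mammary, muscle, skin and testis origin. Cultured lines divide and lack the tissue around them, and a common pool of this kind is used mainly to put all arrays on one scale. In such bulk RNA, fewer cells of a type and less RNA per cell cannot be told apart.

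The array held 42006 different probes of 60 bases, which the files name by a code and a sequence and pair with no gene, so no gene is named and markers of footpad or of the cell lines could not be checked. The probes at the ends of the comparison are shown here 5′ to 3′, in lower case. The first is the probe with the highest footpad over reference ratio among those measured well above background in both channels, and the second is the lowest of the same kind. The third had the largest bound among probes detected in footpad on all 4 arrays and in the pool on none, and the fourth had the largest bound the other way.
Z00028697-1: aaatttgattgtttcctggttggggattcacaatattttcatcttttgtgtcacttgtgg
Z00074503-1: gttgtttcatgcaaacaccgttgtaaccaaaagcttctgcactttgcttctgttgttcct
Z00000799-1: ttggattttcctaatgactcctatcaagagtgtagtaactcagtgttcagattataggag
Z00030539-1: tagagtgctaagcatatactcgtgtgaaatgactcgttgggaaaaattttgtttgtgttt

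The footpad and reference channels differed at most probes that could be measured, and ratios spread far more across probes than between arrays. A probe was tested where it was well above background in footpad on all 4 arrays or in the pool on all 4, which held for 30625 probes. Of these, 28218, or 92.1%, passed an adjusted p of 0.05 in limma's moderated test with Benjamini-Hochberg adjustment. At least 2-fold, 6961 probes were higher in footpad and 7889 were lower, which is 22.7% and 25.8% of those tested. The SD of the mean log2 ratio across probes was 1.94, against a median SD of 0.087 between the 4 arrays for one probe. Probes whose 95% interval lay within 1.5-fold of equal numbered 7584, or 24.8% of those tested. Within 2-fold of equal they numbered 13704, or 44.7%. The 92.1% counts differences of any size, whether from RNA source or dye.

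The probes called were alike over the arrays. Choosing them by mean and p over these same arrays favours this, also for the WT and Tabby means. Of the 14850 probes called at least 2-fold, 14849 had all 4 arrays on the same side of 0, and 12958 were at least 2-fold on each array. Of the probes called higher, 6731 were at least 2-fold in the WT mean and in the Tabby mean, and of those called lower, 7393 were. Log2 ratios of any pair of arrays correlated at r = 0.983 to 0.985 across probes, which are not independent replicates and share the same pool. For a single value, an exact sign-flip test over 4 arrays cannot give a two-sided p below 0.125.

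**Figure D1:**
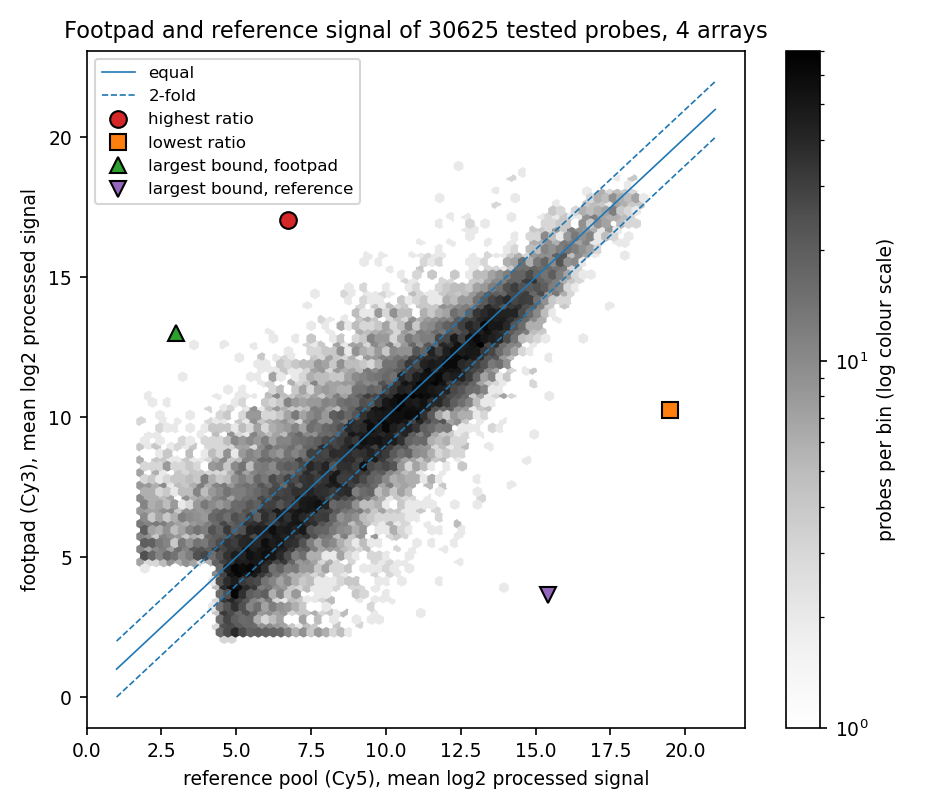
Mean log2 processed signal over 4 arrays in footpad (vertical axis) against the reference pool (horizontal axis) for 30625 tested probes, with darker bins holding more probes. The solid line marks equal signal, the dashed lines a 2-fold difference, and the 4 symbols the probes whose sequences head the results.

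The balance between the directions depended on the size of the difference and on how the signals were corrected. On the scanner's own log ratio, lower probes were more numerous at 2-fold, but at 4-fold 3911 probes were higher and 2856 lower. At 16-fold the counts were 1185 higher and 609 lower, and at 128-fold 89 and 72. Higher calls thus made up 46.9% of all calls at 2-fold and 66.1% at 16-fold. With normexp background correction and a loess curve per array, a common treatment of such arrays that shrinks ratios of dim probes, 4551 probes were higher and 3018 lower at 2-fold, so that 60.1% of calls were higher. The median log2 ratio of all tested probes was -0.18 on the scanner's ratio and -0.01 after normexp and loess. With a loess curve refitted to the scanner's own ratio, a setting chosen after seeing the data, 7674 probes were higher and 6307 lower. Which direction held more probes at 2-fold is therefore not settled by these data.

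**Figure D2:**
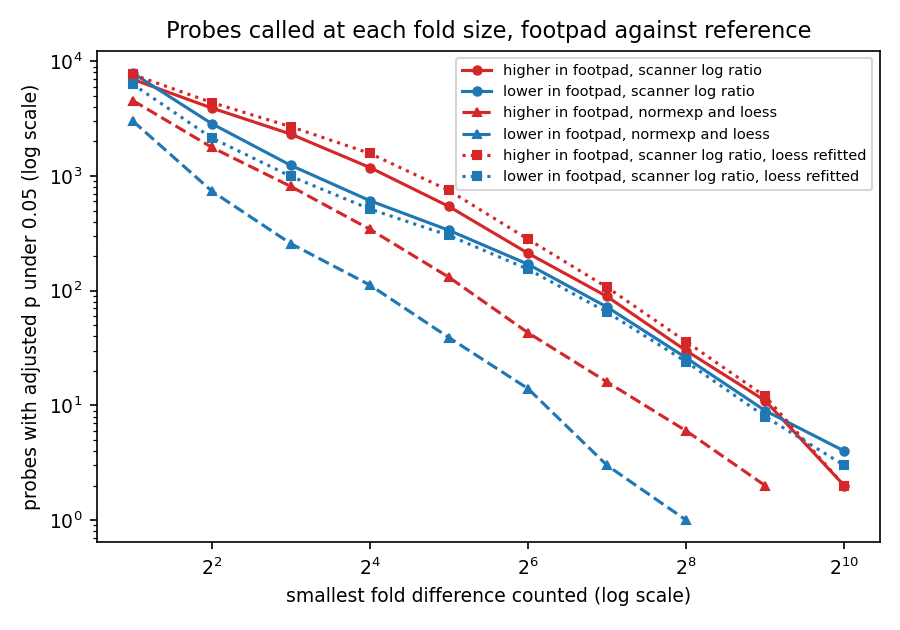
Number of probes with adjusted p under 0.05 (vertical axis, log scale) at or beyond each fold difference (horizontal axis, log scale), higher in footpad in red and lower in blue, for 3 ways of computing the ratio. On the scanner's ratio the lines cross between 2-fold, with 6961 higher and 7889 lower, and 4-fold, with 3911 and 2856.

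The probe with the highest ratio, Z00028697-1, was bright in footpad and near the dim end in the pool. Its footpad signal was 148756 and 129770 in WT replicates 3 and 4, and 123045 and 140442 in Tabby replicates 3 and 4. Its reference signal was 112, 93.2, 99.9 and 121 on the same arrays, and the channels did not overlap on any array. The log2 ratio was 10.32 ± 0.12 (SD, n = 4), a 1275-fold difference with a limma adjusted p of 4.99e-07. Its 95% interval ran from 10.17 to 10.46, and under every other setting computed for it the ratio stayed between 9.22 and 10.43.

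The lowest ratio, Z00074503-1, was that of the brightest reference spot on each array. Its reference signal was 765796, 718825, 687613 and 791350 in the order WT 3, WT 4, Tabby 3 and Tabby 4. The footpad signal of the probe was 1547 and 1997 on the WT arrays and 1192 and 589 on the Tabby arrays. The pool's signal was thus alike on all arrays, while the footpad signal was lowest on Tabby 4 and highest on WT 4. The log2 ratio was -9.25 ± 0.81 (SD, n = 4), with a limma adjusted p of 1.33e-05, and it was -10.39 on Tabby replicate 4 against -8.49 to -9.17 on the others.

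Z00000799-1, detected in footpad alone, gave footpad signals of 7861 and 7956 in WT and 9262 and 8013 in Tabby. Its reference signal was 6.32 to 12.5, not well above background on any array. Set against the lowest signal that counted as detected in the pool, footpad was at least 469.6-fold higher. On values after normexp, loess and quantile adjustment of the average intensities, the same bound was 66.8-fold.

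Z00030539-1 was detected in the pool alone, with reference signals of 45300, 43931, 42527 and 41780 over the arrays. Footpad signals of 7.75 to 17.7 were not well above background. The bound was at least 2012-fold lower in footpad on the scanner's signals and 228.2-fold on the adjusted ones. Both ends of the comparison therefore held probes whose bright channel varied little between arrays, and both bounds were several times smaller on the adjusted values.

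On detection, most of the array was either seen in both RNAs or in neither. Well above background on all 4 arrays in both channels were 25672 probes, or 61.1%, and in neither channel on any array 8442, or 20.1%. Footpad alone gave signal for 1011 probes and the pool alone for 1839, while 5042 were mixed, with at least 1 channel detected on some arrays and not on others. Of the mixed probes, 2103 were detected on all 4 arrays in 1 channel and so were tested. The order of the exclusive classes turned with the rule: with a signal above 2 times the local background median, 2250 probes were in footpad alone and 894 in the pool alone. Under both rules, 528 probes were in footpad alone and 376 in the pool alone. Of 153 negative control spots per array, 0 were detected in the footpad channel and 1 or 2 in the reference channel.

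Among the 1011 probes of footpad alone, all had a bound above 1, the median bound was 4.30-fold and 148 were at least 16-fold higher. The 1839 probes of the pool alone were dimmer in their bright channel, with a median signal of 38.9 against 75.6. Of these, 1802 had a bound above 1, the median bound was 1.80-fold, and 112 were at least 16-fold lower in footpad. The lowest signal that counted as detected was 19.6 to 23.7 in footpad and 16.3 to 19.3 in the pool. It was higher in footpad on each array. These unequal limits favour larger bounds and brighter signals in the footpad set, and their part in the contrast was not tested. These exclusive probes also varied more between arrays: the median SD of the log2 ratio was 0.48 for footpad alone and 0.44 for the pool alone, against 0.072 where both channels were detected. On the adjusted values, 91 of the former and 85 of the latter had a bound of at least 4-fold, against 543 and 365 on the scanner's signals.

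The brightest probes differed between footpad and pool as well. The 100 brightest footpad probes and the 100 brightest reference probes shared 24. Of the 100 brightest in footpad, 57 were called at least 2-fold higher there, and of the 100 brightest in the pool, 30 were called lower in footpad and 1 higher. Choosing probes by their signal in one channel favours these directions. The 10 brightest probes held 3.33 to 3.89% of all footpad signal on an array and 2.18 to 2.26% of all reference signal, so the ranges over the 4 arrays did not overlap. The 1000 brightest held 57.5 to 58.1% and 53.8 to 54.3%, again without overlap.

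Large differences were more common among dim probes. With tested probes divided by mean signal into 5 groups of equal size, the dimmest group had the most calls: 27.9% were called at least 2-fold higher and 36.9% lower. In the brightest group the shares were 15.2% and 15.2%, against 22.7% and 25.8% of all tested probes. The median SD between arrays fell over the same range from 0.36 to 0.046, so bright probes gave the more precise ratios. A probe could be tested on the strength of either channel alone, which favours large ratios among probes near the detection limit. The part of this filter in the higher share of calls among dim probes was not tested.

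Since no probe has a gene, probes were grouped by what their sequence spells. Each was read in its 3 forward frames for 32 protein motifs and searched for 3 base motifs. Of the 35 classes, 15 had at least 5 tested probes, 8 had 1 to 4, 2 had probes of which none was tested, and 10 matched no probe. In all, 242 of 42006 probes matched a protein motif. A match describes letters and assigns no gene, and the number of probes matching on the complementary strand is given for comparison. Of the members well above background in both channels on all 4 arrays, the one with the largest ratio in either direction is shown for each of the 8 classes whose median lay farthest from that of all probes, with the matching bases in capitals.
glycine-serine-rich: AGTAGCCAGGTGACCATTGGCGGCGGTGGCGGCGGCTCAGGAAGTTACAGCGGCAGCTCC
EF-hand: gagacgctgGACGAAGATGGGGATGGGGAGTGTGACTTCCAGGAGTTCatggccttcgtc
proline-rich: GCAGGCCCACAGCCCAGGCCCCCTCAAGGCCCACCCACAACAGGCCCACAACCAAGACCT
histone H4: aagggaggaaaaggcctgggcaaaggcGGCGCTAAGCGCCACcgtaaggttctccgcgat
EGF-like: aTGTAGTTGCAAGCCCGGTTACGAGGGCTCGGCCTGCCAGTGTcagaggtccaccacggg
leucine-rich repeat: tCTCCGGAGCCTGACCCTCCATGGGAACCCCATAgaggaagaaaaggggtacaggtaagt
cysteine-rich: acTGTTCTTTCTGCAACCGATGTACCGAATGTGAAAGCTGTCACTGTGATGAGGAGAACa
claudin: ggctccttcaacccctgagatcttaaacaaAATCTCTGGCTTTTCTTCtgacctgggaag

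Glycine-serine-rich probes, whose open frame is mostly glycine and serine as in the flexible ends of some epidermal keratins and cornified envelope proteins, had the highest class median. Of 8 such probes, all tested, 5 were called at least 2-fold higher in footpad and 2 lower, against 22.7% and 25.8% of all probes. The median log2 ratio was 1.70 on the mean of all arrays, 1.502 and 1.93 on WT replicates 3 and 4, and 1.75 and 1.62 on Tabby replicates 3 and 4. After normexp and loess the class median was 1.19. The probe shown gave footpad signals of 389551 and 447692 in WT and 439766 and 505502 in Tabby, and reference signals of 16578, 17366, 16248 and 18612. All footpad signals lay above all reference signals, at a log2 ratio of 4.69 ± 0.097 (SD, n = 4) with a limma adjusted p of 5.83e-07. On the complementary strand 12 probes matched, of which 10 were tested, 1 was higher and 2 were lower. Their median was -0.58, on the other side of 0, as also happened for the proline-rich class below.

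Proline-rich probes moved mostly the other way. Proline-rich stretches occur in extracellular matrix, salivary and signalling proteins. All 24 were tested, and 1 was called at least 2-fold higher and 13 lower. These are 4.2% and 54.2%, against 22.7% and 25.8% of all tested probes. The median log2 ratio was -1.17, with array medians from -1.31 to -1.04. After normexp and loess the median was -0.60. The probe shown had footpad signals of 523 to 595 and reference signals of 3779 to 4134, with no overlap, and a log2 ratio of -2.83 ± 0.11 (SD, n = 4; limma adjusted p = 1.75e-06). Of the 27 probes that match on the complementary strand, 25 were tested, and their median lay on the other side: 12 were higher and 4 lower, with a median of 0.91. Both sets had a like GC content, with medians of 64.2% and 66.7%. Since proline codons begin with C in both leading places, the first set is rich in C and the second, its complement, in G.

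EF-hand probes spell the calcium-binding loop of proteins such as calmodulin and the S100 family, and 0 probes matched on the complementary strand against 8 forward. Of 7 tested, 4 were called at least 2-fold lower and 2 higher, or 57.1% and 28.6%, against 25.8% and 22.7% of all tested probes. Log2 ratios ran from -2.55 to 4.11, with a median of -1.66. The probe shown was the highest: footpad signals of 6821 to 7532 stood against reference signals of 397 to 427, a log2 ratio of 4.11 ± 0.087 (SD, n = 4; limma adjusted p = 6.20e-07). The class thus had probes far to either side. Among those detected in both channels the median was -0.60, and after normexp and loess that of all 7 was -0.34.

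Histone H4 and EGF-like probes also matched almost only on the forward strand, with 0 and 1 complementary matches against 5 and 6. Histone H4 is a core protein of the nucleosome made chiefly as cells replicate their DNA. Of its 5 probes, 2 were called at least 2-fold lower and 1 higher, with a median of -0.93. These are 40% and 20%, against 25.8% and 22.7% of all tested probes. The probe shown gave 170 to 195 in footpad and 644 to 668 in the pool, a log2 ratio of -1.82 ± 0.10 (SD, n = 4; limma adjusted p = 4.82e-06). Of the 6 EGF-like probes, which spell the cysteine spacing found in Notch, laminins and fibrillins, 3 were lower and 2 higher, or 50% and 33.3%. The EGF-like class had a median of -0.89. Its shown probe gave 33.3 to 49.7 in footpad and 551 to 586 in the pool, a log2 ratio of -3.77 ± 0.24 (SD, n = 4; limma adjusted p = 5.22e-06). After normexp and loess that ratio was -1.56, the EGF-like median was -0.06, the histone H4 median was -0.50, and the histone H4 probe shown was -0.98, under 2-fold.

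Cysteine-rich probes follow a pattern of metallothioneins, LIM domains and keratin-associated proteins among others. Of 26 tested, 3 were called higher and 7 lower, or 11.5% and 26.9%, against 22.7% and 25.8% of all tested probes. Their median was -0.55, and -0.23 after normexp and loess. They had 15 complementary matches against 29 forward. The shown probe was higher in footpad, at signals of 6918 to 8455 against 980 to 1080 and a log2 ratio of 2.91 ± 0.14 (SD, n = 4; limma adjusted p = 2.63e-06). Leucine-rich repeat probes, a pattern of small matrix proteoglycans and receptors, had 1 of 6 higher and 1 lower, or 16.7% each way. They had 8 complementary matches against 11 forward, and a median of 0.51. That median was 0.25 after normexp and loess and 0.27 for probes detected in both channels. Without the filter on dim probes it was exactly 0, as in several other classes, and is not read as a measured ratio. Its shown probe was the lower one, at 204 to 229 in footpad against 881 to 903 in the pool. The claudin pattern matched 28 probes forward and 31 on the complementary strand, which makes the name a poor guide to what these probes read. Of its 21 tested probes, 5 were higher and 6 lower, or 23.8% and 28.6%, near the shares of all tested probes. Its shown probe was dim, at 98.3 to 158 in footpad and 21.6 to 31.0 in the pool, and its log2 ratio of 2.27 after the scanner's subtraction was 0.61 after normexp and loess.

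The remaining classes are set against the 22.7% of all tested probes that were higher and the 25.8% that were lower. Probes with the linker between C2H2 zinc fingers, the commonest DNA-binding domain of mammals, had 4 of 17 called higher, or 23.5%, and as many lower, with a median of -0.28 and 1 complementary match against 20 forward. Immunoglobulin fold probes had 5 of 14 higher and 5 lower, or 35.7% each way, with 10 complementary matches against 17 forward. P-loop probes, which spell a nucleotide-binding loop, had 13 of 42 higher, or 31.0%, and 9 lower, or 21.4%, with 50 complementary matches against 55. RNA recognition motif probes had 1 of 6 lower, with 6 complementary matches against 8. The canonical poly(A) signal, AATAAA, stood in 2911 of 42006 probes and on the complementary strand of 1413. Of its 2291 tested probes, 22.9% were higher and 25.5% lower at 2-fold, with a median of -0.17 against -0.18 for all probes. The variant ATTAAA, which may overlap AATAAA or share a probe with it, had 230 of 993 tested probes higher and 248 lower, with 967 complementary matches against 1342 forward. The AU-rich class, with the pentamer ATTTA at least 2 times in a probe, had 18 of 91 higher and 19 lower, and it matched 201 probes on the complementary strand against 145 forward.

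**Figure D3:**
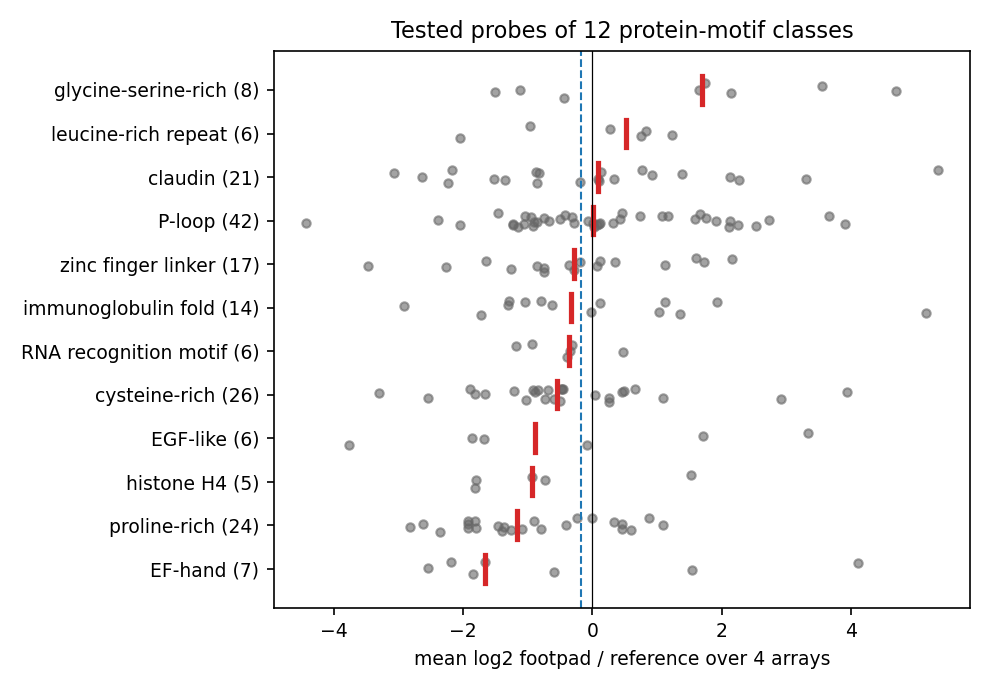
Mean log2 footpad over reference ratio (horizontal axis) of each tested probe, in grey, for the 12 protein-motif classes with at least 5 tested probes, whose number stands in brackets. Red bars are class medians, from -1.66 for EF-hand to 1.70 for glycine-serine-rich probes, and the dashed line is the median of all tested probes at -0.18.

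**Figure D4:**
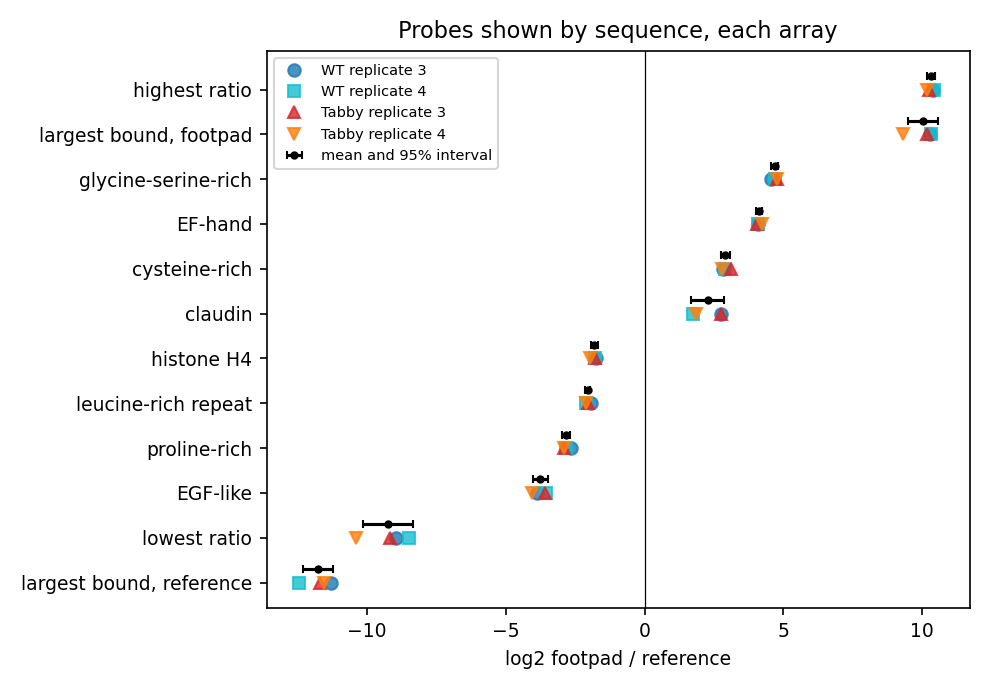
Log2 footpad over reference ratio (horizontal axis) of the 12 probes printed by sequence, with 1 symbol per array and, above it, the mean with its 95% interval over 4 arrays in black. For the 2 probes detected in one channel alone the fitted ratio is drawn, which is not the bound. The lowest ratio, at -9.25, had the widest interval of the probes detected in both channels.

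The bases of a probe moved with its ratio over the whole array, not in the proline-rich class alone, but weakly. Over the 30625 tested probes, G minus C and the mean log2 ratio correlated at r = 0.11. This comparison was chosen after that class had been seen. Probes with at least 5 more C than G had a median log2 ratio of -0.48, and 17.8% of 7831 were called at least 2-fold higher and 32.8% lower. Probes with at least 5 more G than C had a median of 0.07, and 26.4% of 7816 were higher and 19.9% lower. Of all tested probes, 22.7% were higher and 25.8% lower. The C-rich and G-rich sets both had a median GC content of 45.0%. The G-rich median exceeded the C-rich one by 0.52, 0.53, 0.54 and 0.56 on the 4 arrays, 0.54 ± 0.016 (SD, n = 4; exact sign-flip p = 0.125, two-sided, the smallest possible).

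The order held within each range of GC content and signal. With all probes divided by GC content into 4 groups of 12543, 8469, 11922 and 9072 probes from lowest to highest, the C-rich and G-rich medians were -0.65 and 0.02 in the highest GC group, and -0.19 and 0.04 in the lowest. In the brightest signal group they were -0.14 and 0.01, and in the dimmest -0.84 and 0.03. By contrast, an excess of A over T of at least 5 bases gave a median of -0.14, against -0.18 for the reverse excess. After normexp and loess the difference between G-rich and C-rich probes was 0.23, the smallest value over all settings, and it kept its sign in each of them. Dye, labelling kit and RNA source differ between the channels together, and their part in this difference cannot be told apart.

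GC content itself went weakly with the ratio (r = -0.07 over tested probes), in a way that turned with signal. The middle GC groups had median log2 ratios of -0.11 and -0.11, near that of the lowest, so only the highest stood apart. In the highest GC group, with at least 51.7% GC, the median log2 ratio was -0.36, and in the lowest, with at most 38.3%, it was -0.09. The share called higher was 17.7% and 25.1%, against 22.7% of all tested probes. The share called lower was 28.5% and 23.2%, against 25.8%. The difference of these medians was -0.21 on WT 3 and -0.27 to -0.29 on the other arrays, -0.26 ± 0.034 (SD, n = 4; exact sign-flip p = 0.125, two-sided). In the dimmest signal group the medians were -0.73 for high and 0.69 for low GC, while in the brightest signal group they were 0.04 and -0.22, so the order was reversed. Of the dimmest group, 599 of 1702 high-GC and 293 of 1433 low-GC probes were detected in both channels. The medians of these were -0.20 and 0.31, nearer to each other. The others had passed the filter through 1 channel, which favours large ratios. The reversal between dim and bright probes was present after normexp and loess too, where high minus low GC was -0.22 in the dimmest and 0.21 in the brightest signal group.

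Detection followed GC content in both channels, and more in the pool. Footpad RNA was detected on all 4 arrays for 62.6% of probes in the lowest GC group and 72.3% in the highest, and the pool for 61.1% and 80.6%. Of the 1011 probes seen in footpad alone, 513 were in the lowest group and 55 in the highest, which is 4.09% and 0.606% of the probes of those groups. Of the 1839 seen in the pool alone, 389 and 469 were, or 3.10% and 5.17%. The median GC content of the exclusive sets was 38.3% and 45.0%.

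Probes with more open reading frames, meaning no stop codon in a frame of the probe as in coding sequence, had lower ratios. With 3 open forward frames, 329 of 1987 tested probes were called at least 2-fold higher and 635 lower, with a median log2 ratio of -0.45. With no open frame, 1363 of 5239 were higher and 1229 lower, with a median of -0.02. Open frames go with GC content, whose median was 53.3% in the former and 38.3% in the latter, and also with the balance of C and G. Among probes with at least 5 more G than C the medians were -0.20 and 0.14, and among those with at least 5 more C than G they were -0.75 and -0.25. Within the highest GC group, probes with 2 or 3 open frames had a median of -0.41 and those with 0 or 1 a median of -0.26. In the lowest GC group the medians were -0.096 and -0.093, so the order was hardly present there.

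**Figure D5:**
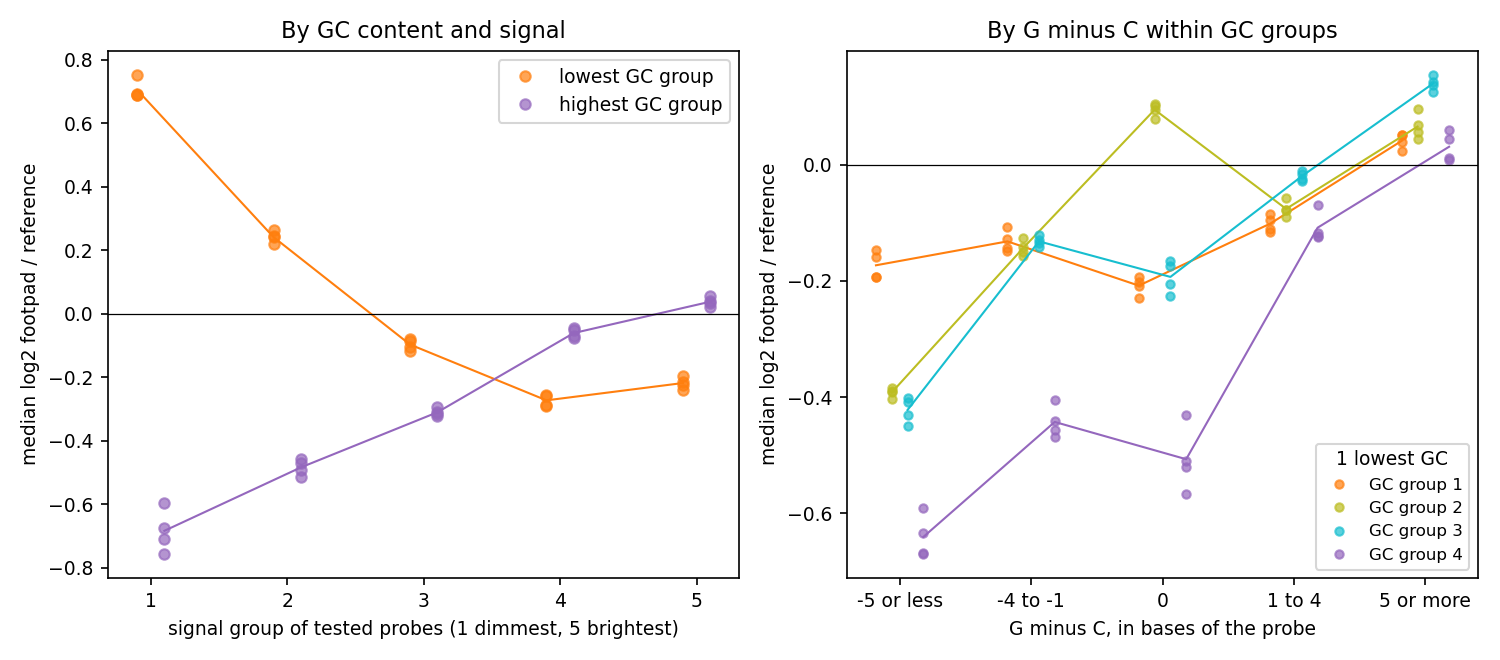
Median log2 footpad over reference ratio (vertical axes) with 1 point per array and lines through the mean of the 4 arrays. Left, all tested probes of the lowest and highest GC group in each of 5 signal groups, also those detected in 1 channel alone. The order turns from 0.69 and -0.73 in the dimmest to -0.22 and 0.04 in the brightest signal group. Right, by G minus C in bases of the probe within the 4 GC groups: the C-rich probes at the left end lie below the G-rich ones at the right end in every group.

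Probes that share sequence gave a check between probes rather than between arrays. Both probes of a pair were read on the same arrays, so it does not measure spread between samples. The array held 47 pairs of probes with identical sequence, 21 of them tested, and their log2 ratios differed by a median of 0.11. In 20 of the 21 pairs the ratios had the same sign, and 3 pairs lay more than 2-fold apart. Pairs that share at least 25 bases without being identical numbered 1413, of which 903 were tested. These differed by a median of 0.13, had the same sign in 862 pairs and lay more than 2-fold apart in 72, at most 6.41 on the log2 scale. Each of these ratios is a mean over 4 arrays, which varies less than a single array. The median SD of 0.087 between single arrays is therefore no measure for the differences. Between identical probes the 90th percentile of the difference was 1.04. For the 7 probes in several spots, the SD of the log2 ratio within an array had a median of 0.27 and reached 1.20.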

How the data were processed

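Intensities of 4 two-colour arrays came from Agilent Feature Extraction 9.5.1.1, per the file headers. The deposited log10 ratio is that of Cy5 over Cy3 after the authors' background subtraction and dye normalization in that software. It equalled the ratio of the processed signals on 90.6 to 91.6% of probe spots per array. It was multiplied to log2 and turned to footpad over reference; spots with feature outlier flags (2, 5, 4 and 43 per array) were left out and spots of a probe averaged. Arrays held 43451 spots, 1417 of them controls; precision is limited by the 4 arrays. An intercept was fitted over arrays with limma 3.58.1 (R 4.3.3, lmFit and eBayes, Benjamini-Hochberg), called at adjusted p under 0.05 and at least 2-fold. The fit was also run on simulated data with few changed probes, unlike these data, so that run does not bear on the calls. For a probe detected in 1 channel, the dim side took the higher of its own signal and the lowest detected one. Named probes were the extremes per direction, and shown class probes the largest ratios among members detected in both channels on all arrays. Probes, classes and rules were chosen with earlier results of these data known. Alternative values came from the deposited mean intensities and local background medians. Same-numbered samples did not deviate together (r = -0.02).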

Additional observations from a re-analysis of the deposited data

Results flagged for a closer look

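Of 40 results compared over the 4 arrays, 7 had 1 array set far from the others, where chance gives about 1 in 20. The footpad-only probe Z00000799-1 had a log2 ratio of 9.32 on Tabby replicate 4, against 10.19 to 10.34 on the others. On the same array the EF-hand probe shown stood at 4.24 against 4.06 to 4.08, and the histone H4 probe at -1.97 against -1.75 to -1.78. Also on Tabby replicate 4 the median of the RNA recognition motif class was -0.56, and that of the claudin class was -0.20. Tabby replicate 4 had 43 feature outlier spots against 2 to 5. On Tabby replicate 3 the EF-hand class median was -1.22, against -1.73 to -1.70 elsewhere.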

How the results depend on the processing

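Probes at least 2-fold higher and lower numbered 6961 and 7889 on the scanner's ratio. They were 4551 and 3018 after normexp and loess; with outlying backgrounds replaced, lower probes numbered 3325, and with no background subtraction 3355. At 4-fold they were 3911 and 2856. Every other setting stayed within 1.5 times, and the replicate block gave 6958 and 7886. Loess refitted to the scanner's ratio gave 7674 and 6307, and a normexp offset of 0 with backgrounds replaced gave 7069 and 5407. In these, unlike on the scanner's ratio, higher probes were more numerous. Leaving out 1 array gave 6924 to 6990 higher and 7790 to 7907 lower. With a signal above 2 times the local background, 2250 probes were in footpad alone, 894 in the pool alone and 14239 in neither. The high minus low GC difference, -0.27 on the mean ratio, was -0.11 after normexp and loess, -0.14 with backgrounds replaced, -0.15 with no subtraction, -0.23 with floored signals, -0.086 for probes detected in both channels, -0.37 with no filter and -0.19 with loess refitted. The G-rich minus C-rich difference, 0.55, was 0.23, 0.28, 0.29, 0.49, 0.45, 0.32 and 0.51 in the same order, and 0.47 with a normexp offset of 0. Loess refitting and the offset of 0 were chosen after seeing the data; the causes were not tested. All 12 printed probes kept direction and an adjusted p under 0.05 wherever computed, but 2 fell below 2-fold: claudin at 0.61, 0.72 and 0.78 after normexp and loess, with backgrounds replaced and with no subtraction, and histone H4 at -0.98 after normexp and loess. Of 195 alternative class medians, 80 moved by more than the spread between arrays. Dye and RNA source cannot be told apart, and dim signals limit the largest folds.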
